A study of Homo sapiens with 2 samples.

Results

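The genes described here are 10 members of the Hippo pathway, and of the genes it controls, in A549 cells, a human lung adenocarcinoma line. They were chosen by gene symbol from the 13137 genes of a table of mRNA tag counts. Of the 10, 6 belong to the pathway itself (YAP1, WWTR1, TEAD1, SAV1, LATS1 and LATS2) and 4 are target genes of YAP1 (CYR61, CTGF, ANKRD1 and AMOTL2), and all 10 were listed with tags in both libraries. The study compared 1 library, shRNA-SOX2, from cells with a short hairpin RNA against the transcription factor SOX2, with 1 library, shRNA-Con, from cells with a scrambled hairpin. In both, the hairpin came from a lentivirus with a doxycycline-inducible H1-TetO promoter, the cells were a polyclonal population selected with puromycin, and RNA was collected after 4 days with doxycycline.

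The Hippo pathway is a kinase cascade that limits organ size and senses cell contact and tension. The kinases STK3 and STK4, with their scaffold SAV1, activate the kinases LATS1 and LATS2, which phosphorylate the coactivators YAP1 and TAZ (the product of WWTR1). Phosphorylated YAP1 and TAZ are held in the cytoplasm by 14-3-3 proteins or degraded. Without this mark they enter the nucleus and bind the TEAD factors, which recognise the DNA motif GGAATG and drive target genes. In lung cancer YAP1 is known as a growth-promoting coactivator. Messenger RNA levels, which were measured here, do not show phosphorylation or location.

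Sequence upstream of a RefSeq start of 4 members is shown because it carries the TEAD motif, which is printed in capitals on either strand (GGAATG or its reverse complement CATTCC). The sequences are those of RefSeq on build GRCh38.p14, each 5′ to 3′ on the strand of the gene, and positions count back from -1, the last base before the annotated start.
CTGF, chr6:131951442-131951561, minus strand, positions -189 to -70: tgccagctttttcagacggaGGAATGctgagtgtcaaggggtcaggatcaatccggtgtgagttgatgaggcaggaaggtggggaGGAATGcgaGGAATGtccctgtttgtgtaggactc
ANKRD1, chr10:90921190-90921327, minus strand, positions -240 to -103: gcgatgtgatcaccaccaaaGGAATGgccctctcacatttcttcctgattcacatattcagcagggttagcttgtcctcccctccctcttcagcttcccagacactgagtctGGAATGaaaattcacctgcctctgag
AMOTL2, chr3:134374491-134374536, minus strand, positions -89 to -44 from the second of its listed starts: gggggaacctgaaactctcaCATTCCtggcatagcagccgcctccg
YAP1, chr11:102110265-102110310, plus strand, positions -182 to -137: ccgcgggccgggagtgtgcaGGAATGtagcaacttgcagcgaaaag

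CTGF held 3 copies of the motif, at -169, -104 and -95, ANKRD1 held 2, at -220 and -128, and AMOTL2 and YAP1 held 1 each, at -69 and -162. The window of the first listed start of AMOTL2 held no copy. In the GENCODE annotation the AMOTL2 stretch lies within the span of the gene, and that of ANKRD1 lies partly within it. The windows searched ran from 250 bases before to 50 bases after each listed start, 300 bases in all. A further copy began 9 bases after the RefSeq start of LATS2, which lies upstream of the gene's span in the GENCODE annotation. No copy was found in the windows of WWTR1, SAV1 or LATS1, and CYR61 and TEAD1 were not matched to a window. Of all 35116 windows, 14% held the motif at least once, 1.37% at least 2 times and 0.128% at least 3 times. The motif CATTGT, a core sequence bound by SOX proteins (reverse complement ACAATG), was found in 1 window of LATS1 and 1 of LATS2, beside 10.8% of all windows. A match is a description of the letters and not a measured binding site.

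Each condition had 1 library, so no difference had a replicate check, and every test below compares these libraries and not the conditions. The tags counted on genes came to 2304184 in shRNA-Con and 2093816 in shRNA-SOX2. Each gene was compared by Fisher's exact test with Benjamini-Hochberg (BH) adjustment over the whole table, at a false discovery rate (FDR) of 0.001, the threshold the study used, and a log2 fold change sets shRNA-SOX2 against shRNA-Con once each count is divided by its library's total. The level of a gene below is its number of tags per 1000000 gene tags. Intervals were set at 95% by the Clopper-Pearson method, and counting error is all they cover. SOX2, the targeted gene, had 16 tags with the scrambled hairpin and 23 in the library from cells with the SOX2 hairpin (log2 fold change 0.66, interval -0.32 to 1.68, adjusted p = 0.333, Fisher's exact test). Its mRNA was thus not lower where the label says it was targeted. By Western blotting, the study reported silencing of SOX2 in A549 cells with this hairpin after doxycycline. That result concerns protein, which tag counts do not measure. The columns of the table were matched to the libraries by their initials alone (SC for shRNA-Con). The study reported YAP1 mRNA as significantly reduced with SOX2 silencing in its RNA sequencing. With the columns matched as here, YAP1 had 224 tags in the control column and 99 in the other, which is the same direction. That result rests on the same tags, so it is not an independent check of the matching. Because SOX2 mRNA itself was not lower, the second library is called "the library labelled shRNA-SOX2" from here on. It is also called the other library beside the control tags of shRNA-Con. The A549 markers KRT8, KRT18, KRT7, ALDH1A1 and AKR1B10 had between 1606 and 14268 tags in each library, while KRT19 had 35 and 127 and EPCAM 8 and 4. A further A549 marker, AKR1C1, was not listed. Of these 7 listed markers 3 passed as higher and 3 as lower in the library labelled shRNA-SOX2, beside 9.53% and 12.2% of all genes. Among the markers of other cell types, PTPRC and PECAM1 had at most 3 tags, COL1A1 had 44 and 43, and CD3E, HBB, COL3A1 and ALB were not listed. In a bulk library, less RNA per cell and fewer cells that express a gene cannot be told apart.

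Of the 10 members, 4 passed FDR 0.001, and in all 4 the library labelled shRNA-SOX2 had the lower level. They were YAP1 and 3 of its 4 targets, CYR61, ANKRD1 and AMOTL2. Their ratios lay between 0.311 for ANKRD1 and 0.486 for YAP1. SAV1, LATS1, LATS2, WWTR1, TEAD1 and CTGF did not pass. As background, 21.7% of all 13137 genes passed, 12.2% lower and 9.53% higher. Among the 6237 genes with at least 100 tags in all, 22.5% passed as lower. Of the members, 1 of 6 in the pathway (16.7%) and 3 of 4 targets (75%) passed as lower, and with at least 100 tags these were 1 of 4 and 3 of 4. All 4 genes that passed had a log2 fold change of -1 or below, and 6.77% of all genes both passed and had such a value. The 10 members and the lists below were chosen with earlier results of these data known, so such shares are descriptions and not tests.

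**Figure D1:**
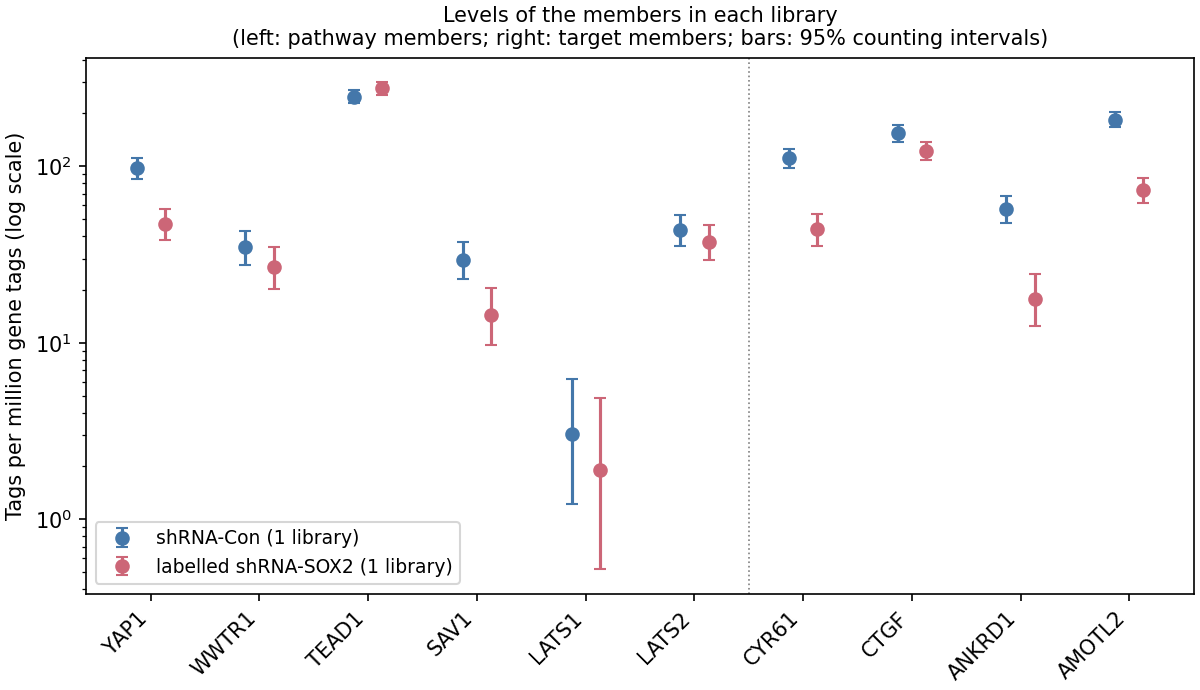
Tags per 1000000 gene tags (log axis) of the 6 pathway members (left of the dotted line) and the 4 target members (right) in shRNA-Con (blue, 1 library) and the library labelled shRNA-SOX2 (red, 1 library), with exact 95% Poisson intervals of the counts. The intervals of the libraries do not touch for YAP1, SAV1, CYR61, ANKRD1 and AMOTL2, and they overlap for WWTR1, TEAD1, LATS1 and LATS2, while those of CTGF, 138 to 171 and 108 to 138, meet.

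YAP1 (Entrez Gene ID 10413; GRCh38 chromosome 11, 102110461 to 102233423, plus strand), the coactivator on which the pathway acts, had 224 control tags against 99 in the library labelled shRNA-SOX2. Its level was 97.2 in the control and 47.3 in the other library. The log2 fold change was -1.04 (interval -1.40 to -0.69, adjusted p = 7.05e-09, Fisher's exact test). The level of YAP1 mRNA was therefore about halved between the libraries (ratio 0.486), a difference larger than counting error. Of the 10045 genes with 20 or more tags over both libraries, 12.3% had a lower fold change.

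WWTR1 (25937; chromosome 3, 149517235 to 149736714, minus strand) encodes TAZ, the paralog of YAP1. It had 80 control tags against 56 in the library labelled shRNA-SOX2, which are levels of 34.7 and 26.7. Its log2 fold change of -0.38 had an interval from -0.90 to 0.13 and did not pass (adjusted p = 0.258, Fisher's exact test). Counting error alone thus allowed a fall to 0.537 of the control level or a rise to 1.1 times it. The change of YAP1 and that of WWTR1 were compared directly through the ratio of their tags within each library, which does not depend on how the libraries are scaled. There were 2.8 tags of YAP1 for each tag of WWTR1 in the control and 1.77 in the other library, a ratio of ratios of 0.632 (95% exact interval 0.409 to 0.98, counting error only). The interval left out 1 by a narrow margin, and YAP1 differed more than WWTR1 when counting error is the only error allowed for.

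TEAD1 (7003; chromosome 11, 12674591 to 12944483, plus strand), the DNA-binding partner through which YAP1 and TAZ act, was the one member with a higher value in the library labelled shRNA-SOX2. It had 570 control tags and 577 in the other library, which are levels of 247 and 276. The log2 fold change was 0.16 (interval -0.01 to 0.33) and did not pass (adjusted p = 0.149, Fisher's exact test). With this many tags the interval was narrow, and a fall below 0.991 of the control level lay outside it. The interval of TEAD1 did not overlap that of YAP1.

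The remaining pathway members belong to the kinase cascade, which restrains YAP1. SAV1 (60485; chromosome 14, 50632058 to 50668331, minus strand), the scaffold of STK3 and STK4, had 68 control tags against 30 in the library labelled shRNA-SOX2, which are levels of 29.5 and 14.3. Its log2 fold change of -1.04 equalled that of YAP1 to 2 decimals, but with fewer tags the interval was wider (-1.71 to -0.40) and the adjusted p of 0.00312 (Fisher's exact test) missed the threshold. With the libraries scaled by all clean tags, on genes or not, the log2 fold change of SAV1 was -1.16 and it passed (adjusted p = 7.40e-04, Fisher's exact test).

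LATS1 (9113; chromosome 6, 149658153 to 149718256, minus strand) and LATS2 (26524; chromosome 13, 20973032 to 21061547, minus strand) are the kinases that phosphorylate YAP1. LATS1 had 7 control tags against 4 in the library labelled shRNA-SOX2. A gene needed at least 12 tags in the libraries together to pass, so LATS1 could not have been called at this depth, and its interval, from -2.89 to 1.31 on the log2 scale, covered both a large fall and a large rise. LATS2 had 100 and 78 tags, or levels of 43.4 and 37.3, with a log2 fold change of -0.22 (interval -0.67 to 0.22, adjusted p = 0.471, Fisher's exact test). LATS2 is itself a known target of YAP1 and TAZ, which act on it in a feedback loop. The ratio of ratios between LATS1 and LATS2 was 0.734, with an interval from 0.152 to 3.01 that gave no order between them.

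**Figure D2:**
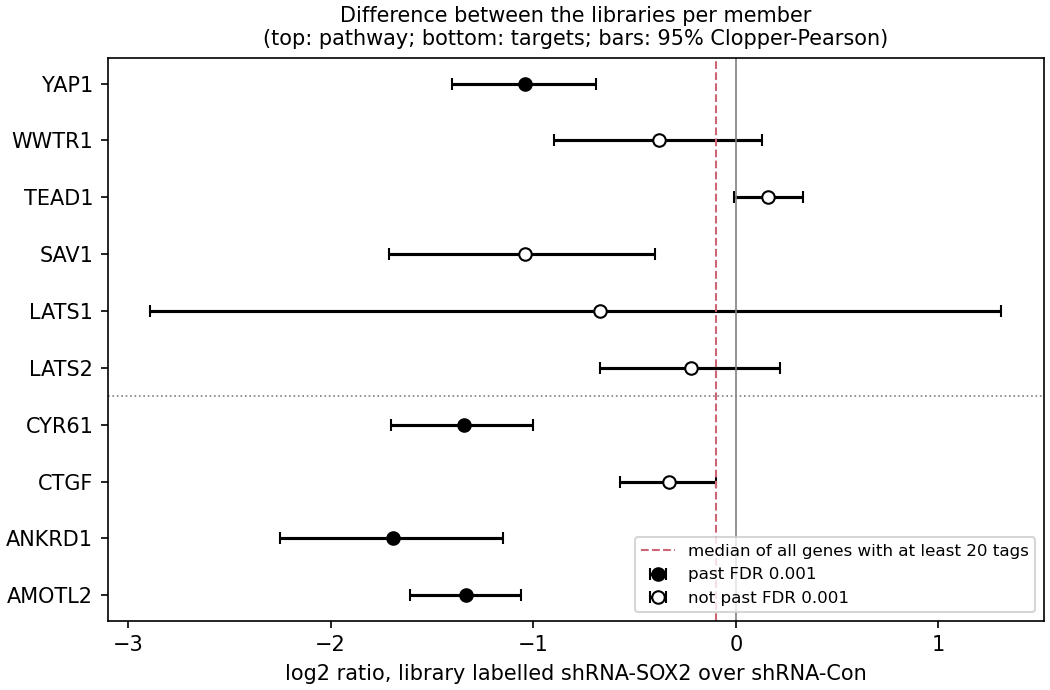
The log2 ratio of the library labelled shRNA-SOX2 to shRNA-Con (x axis) for the 6 pathway members (above the dotted line) and the 4 targets (below), with 95% Clopper-Pearson intervals; filled points passed FDR 0.001 and the dashed line is the median of all genes with at least 20 tags, -0.10. YAP1, CYR61, ANKRD1 and AMOTL2 lie at -1.04 or below with intervals that end at or below -0.69, while WWTR1, TEAD1, LATS1 and LATS2 have intervals that include 0.

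The 4 targets are genes whose promoters or enhancers are bound by TEAD factors with YAP1, and they are commonly read as a measure of YAP1 and TAZ activity. AMOTL2 (51421; chromosome 3, 134355874 to 134375479, minus strand), an angiomotin-like scaffold of cell junctions that binds YAP1 and holds it back, had 424 control tags against 153 in the library labelled shRNA-SOX2. Its level went from 184 to 73.1, and the log2 fold change was -1.33 (interval -1.61 to -1.06, adjusted p = 1.13e-23, Fisher's exact test). It had the smallest p of the 10 members, and 7.06% of the genes with at least 20 tags had a lower fold change.

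CYR61 (3491, now CCN1; chromosome 1, 85580761 to 85583962, plus strand) and CTGF (1490, now CCN2; chromosome 6, 131948176 to 131951373, minus strand) are related secreted matricellular proteins that act on adhesion and wound repair. CYR61 had 257 control tags against 92 in the library labelled shRNA-SOX2, which are levels of 112 and 43.9. Its log2 fold change was -1.34 (ratio 0.394, interval 0.307 to 0.502, adjusted p = 9.77e-15, Fisher's exact test). CTGF had 355 and 256 tags, which are levels of 154 and 122, and a log2 fold change of -0.33 (interval -0.57 to -0.10, adjusted p = 0.0165, Fisher's exact test). CYR61 thus differed well beyond counting error, and CTGF did not pass the threshold. The pair did not change alike: for each tag of CTGF there were 0.724 of CYR61 in the control and 0.359 in the other library, a ratio of ratios of 0.497 (95% exact interval 0.368 to 0.667, counting error only). With clean tags CTGF passed (log2 fold change -0.45, adjusted p = 7.36e-04, Fisher's exact test), and with edgeR's TMM factors it was -0.26 and did not (adjusted p = 0.0716).

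ANKRD1 (27063; chromosome 10, 90912096 to 90921276, minus strand), an ankyrin repeat protein of muscle and nucleus that responds to mechanical strain, had 131 control tags against 37 in the library labelled shRNA-SOX2. Its level was 56.9 in the control and 17.7 in the other library. The log2 fold change was -1.69 (interval -2.25 to -1.15, adjusted p = 1.37e-10, Fisher's exact test), the lowest of the 10 members, and 3.49% of the genes with at least 20 tags lay below it.

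The tags of the 4 targets summed to 1167 in the control and 538 in the other library, a log2 fold change of -0.98. Those of the 6 pathway members summed to 1049 and 844 (log2 fold change -0.18), and TEAD1 gave more than any other member of that sum. Among the 3 targets with a promoter window, CTGF, with the 3 copies of GGAATG printed above, had the fold change nearest 0, and ANKRD1, with 2, had the lowest.

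**Figure D3:**
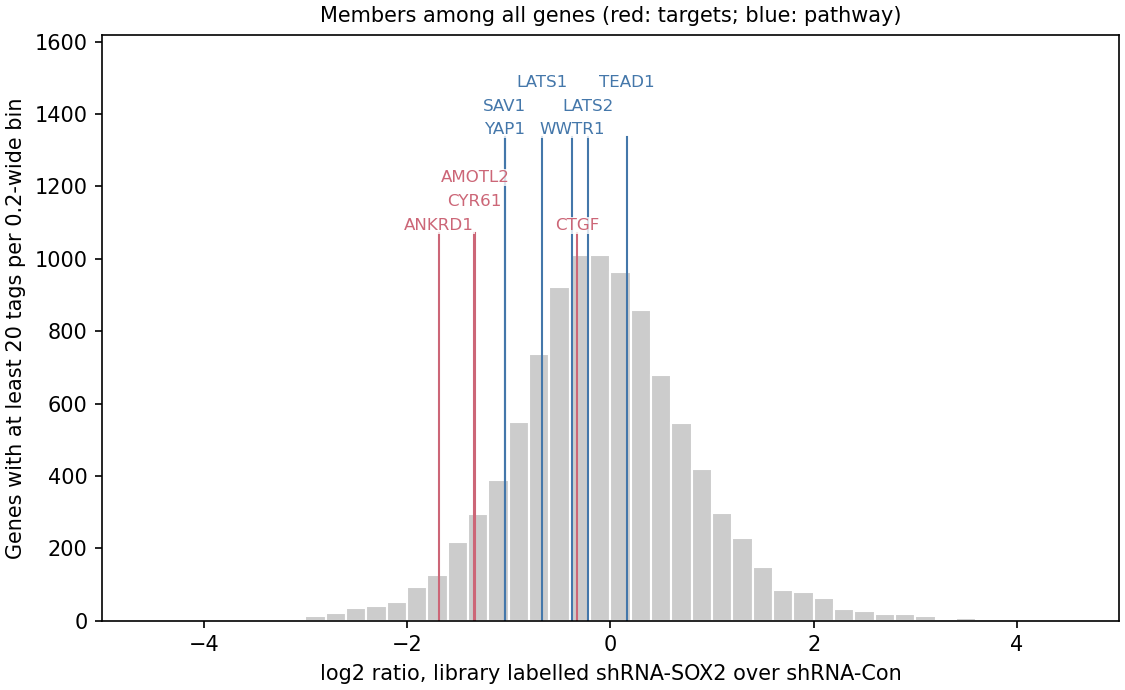
Number of genes with at least 20 tags (y axis, grey bars) per 0.2-wide bin of log2 ratio, library labelled shRNA-SOX2 to shRNA-Con (x axis), with the targets marked in red and the pathway members in blue; LATS1, with 11 tags, is marked but not among the 10045 genes counted. ANKRD1, CYR61 and AMOTL2 lie in the lower tail, with 3.49% to 7.06% of the genes below them, and CTGF, WWTR1 and LATS2 lie between -0.38 and -0.22, near the middle of the distribution.

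Scaling moved all genes by the same amount. The median log2 fold change over the 10045 genes was -0.10 on gene tags, -0.03 after TMM scaling and -0.22 on clean tags, so relative to all genes YAP1, CYR61, ANKRD1 and AMOTL2 were lower by nearly as much as their own values. No member changed direction with either scaling or with the median ratio. The calls rest on counting error alone. In edgeR's exact test, with the spread between cultures assumed to be 0.1 as a coefficient of variation, YAP1 no longer passed (adjusted p = 0.00118) and the 3 targets did, and with 0.2 no member passed (0 of 10, beside 4 with an unadjusted p under 0.05). Exons of YAP1, WWTR1, LATS1 and CTGF overlap annotated antisense genes, those of SAV1 overlap ATL1 on the opposite strand, and those of AMOTL2 overlap the pseudogene RPL39P5 on the same strand. Whether the counting used strand is not given in the sources used here, so tags of these genes could include tags of their neighbours.

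Beyond the members, 59 components of the pathway were listed by role, of which 56 were in the table. Of these 56, 13 were lower, 4 were higher and 39 did not pass, and 7 of the 56 had under 12 tags in all and could not have passed. The 4 of 56 that were higher stand beside 9.53% of all genes. The share of lower calls was 23.2%, beside 12.2% of all genes. With at least 100 tags it was 11 of 37 components (29.7%), beside 22.5% of such genes. The median log2 fold change was -0.24 over the 46 components with at least 20 tags, beside -0.10 for all genes. The members YAP1 and AMOTL2 are among the 13.

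The upstream and scaffold proteins gave 6 of the 13 lower components, the member AMOTL2 among them. These were 6 of 19 in that group (31.6%), beside 12.2% of all genes. With at least 100 tags they were 4 of 10 (40%), beside 22.5% of such genes. None of the 19 was higher, beside 9.53% of all genes, and 4 of the 19 had under 12 tags in all and could not have passed. AJUBA, a LIM protein that binds LATS kinases and keeps them from YAP1 (listed as JUB), had 458 control tags against 110 in the other library (log2 fold change -1.92, adjusted p = 7.63e-43, Fisher's exact test). WTIP, a LIM protein of the same family, had 73 and 21 tags (-1.66). The third of that family, LIMD1, had 67 and 30 tags and did not pass (log2 fold change -1.02, adjusted p = 0.0041, Fisher's exact test).

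WWC1 (KIBRA), an upstream activator of the LATS kinases, had 173 control tags against 48 in the other library (log2 fold change -1.71, adjusted p = 3.93e-14, Fisher's exact test). RASSF1, a tumour suppressor that binds STK3 and STK4, had 48 and 12 tags (-1.86), and the atypical cadherin FAT1 had 166 and 79 (-0.93). The lower genes of this group thus included proteins known to activate the cascade and proteins known to restrain it. NF2 (merlin), which recruits LATS kinases to the membrane, had 83 and 65 tags and did not pass.

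In the kinase cascade, 2 of 13 genes were lower (15.4%, beside 12.2% of all genes) and 1 was higher, beside 9.53% of all genes. With at least 100 tags 2 of 8 were lower (25%), beside 22.5% of such genes. MOB1A, the activating subunit of the LATS kinases, had 229 control tags against 121 in the other library (log2 fold change -0.78, adjusted p = 6.98e-06, Fisher's exact test), and STK38, a kinase related to LATS1, had 113 and 53 (-0.95). MAP4K4, a kinase that can act on LATS1 and LATS2 beside STK3 and STK4, had 189 and 367 tags (log2 fold change 1.10, adjusted p = 6.42e-17, Fisher's exact test). STK3 (70 and 61 tags) and STK4 (88 and 64 tags), the kinases at the head of the cascade, did not pass. MOB1B had 14 and 2 tags and did not pass.

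The STRIPAK phosphatase complex removes the activating mark from STK3 and STK4. Of its 6 listed genes, SLMAP was lower, with 79 and 23 tags (log2 fold change -1.64), and PPP2R1A was higher, with 227 and 320 (0.63). The share of lower calls was 16.7%, beside 12.2% of all genes, and 1 of 6 was higher, beside 9.53%. Among the 10 genes for retention and degradation, the 14-3-3 genes YWHAE (4202 and 2601 tags, -0.55), YWHAQ (1093 and 788, -0.33) and YWHAZ (2185 and 1676, -0.24) were lower and SFN (354 and 485, 0.59) was higher. These fold changes were small, on counts of 354 tags or more. Lower calls made up 30% of the 10 genes, each with at least 100 tags over both libraries, beside 22.5% of all such genes. With TMM factors YWHAZ did not pass (adjusted p = 0.00115, Fisher's exact test).

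Among the 5 other listed partners of YAP1 and TAZ in the table, TEAD2 was the one gene past the threshold, with 6 control tags against 35 in the other library (log2 fold change 2.68, interval 1.42 to 4.22, adjusted p = 5.83e-06, Fisher's exact test). Thus 1 of 5 was higher, beside 9.53% of all genes, and 0 of 5 were lower, beside 12.2%. TEAD3 had 4 and 7 tags and TEAD4 had 4 in each library, under the 12 tags in all that a gene needed to pass. TEAD1 had 570 and 577 tags in the same libraries. VGLL3, a cofactor that competes with YAP1 for TEAD factors, had 159 and 95 tags and did not pass (adjusted p = 0.00494, Fisher's exact test), and neither did VGLL4, with 85 and 69. With clean tags VGLL3 passed (adjusted p = 5.59e-04, Fisher's exact test), and the components past the threshold numbered 21 in place of 17.

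**Figure D4:**
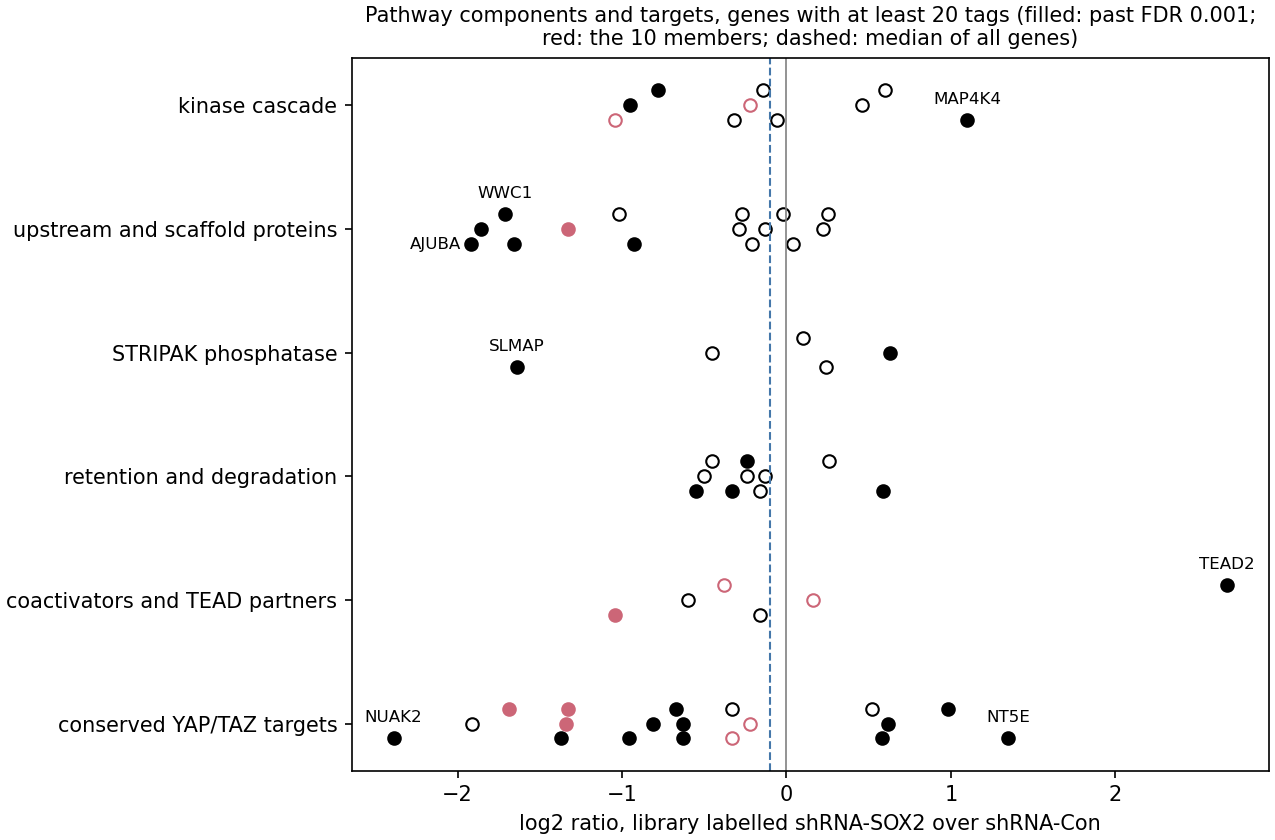
The log2 ratio of the library labelled shRNA-SOX2 to shRNA-Con (x axis) for genes with at least 20 tags in 5 lists of pathway components and a list of YAP1 and TAZ targets (rows), with filled points past FDR 0.001, the members in red and the median of all genes, -0.10, dashed; vertical offsets within a row carry no value. The upstream and scaffold row holds 6 filled points, all below 0, and the target row holds 10 below and 4 above.

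A list of 22 genes often used as conserved YAP1 and TAZ targets holds the 4 target members, LATS2 and 17 others, and all 22 were in the table. Of the 22, 10 were lower, 4 were higher and 8 did not pass. Without the 10 members described above 7 of 17 were lower and 4 of 17 were higher, the latter beside 9.53% of all genes. The share of lower calls among the 17 was 41.2%, beside 12.2% of all genes, a description of a list chosen with earlier results of these data known. With at least 100 tags it was 6 of 11 (54.5%), beside 22.5% of such genes. The median log2 fold change was -0.63 over the 19 genes with at least 20 tags.

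The lower genes beyond the members began with NUAK2, a kinase of the AMPK family, with 52 control tags against 9 in the other library (log2 fold change -2.39, interval -3.60 to -1.36, adjusted p = 8.32e-07, Fisher's exact test). FJX1, a secreted regulator in the FAT pathway, had 117 and 41 tags (-1.37). DOCK5, an exchange factor for RAC, had 165 and 77 (-0.96). CRIM1, a transmembrane protein that binds growth factors, had 980 and 508 (-0.81), the membrane repair protein MYOF had 1113 and 636 (-0.67), and TGFB2, a ligand of the TGF-beta family, had 211 and 124 (-0.63). GADD45A, a stress response gene, had 282 and 166 (-0.63). With TMM factors TGFB2 did not pass (adjusted p = 0.00278, Fisher's exact test), nor with the median ratio (0.00234).

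Genes of the same list were also higher. NT5E, the ectoenzyme CD73, had 48 control tags against 111 in the other library (log2 fold change 1.35, interval 0.85 to 1.87, adjusted p = 1.60e-07, Fisher's exact test). CCDC80, a matrix protein, had 80 and 143 tags (0.98). IGFBP3, which binds insulin-like growth factors, had 401 and 561 (0.62), and ASAP1, a GTPase-activating protein for ARF proteins, had 321 and 435 (0.58). The list thus did not move one way. AXL, a receptor tyrosine kinase, had 353 and 255 tags, nearly the counts of CTGF, and did not pass (log2 fold change -0.33, adjusted p = 0.018, Fisher's exact test). FOXF2 had 33 and 8 tags (log2 fold change -1.91) and did not pass (adjusted p = 0.00113, Fisher's exact test). With clean tags AXL (8.28e-04), FOXF2 (5.36e-04) and CTGF passed in the same test, and the list had 17 genes past the threshold in place of 14.

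Of the 22 targets, 16 had a promoter window, and 9 of the 16 (56.2%) held GGAATG on either strand, beside 16.7% of all 27305 genes with a window. Among the 9, 4 were lower (AMOTL2, ANKRD1, NUAK2 and TGFB2), none was higher (0 of 9) and 5 did not pass. Among the 7 without it, 2 were lower (MYOF and FJX1), 3 were higher (IGFBP3, CCDC80 and NT5E) and 2 did not pass. PTPN14, with the motif, had 3 and 6 tags (log2 fold change 1.14), and F3, without it, had 4 and 5 (0.46). Both had under 12 tags in all and could not have passed. Of the targets with no window, CYR61, CRIM1, DOCK5 and GADD45A were lower, ASAP1 was higher and the remaining gene did not pass. Over all genes, 12.2% passed as lower and 9.53% as higher. The SOX motif CATTGT, on either strand, was found in 1 of the 16 targets with a window (6.25%), beside 13% of all 27305 genes with a window. These counts describe the lists, on few genes, and no test was made of them.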

How the data were processed

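Digital gene expression tags were counted in 2 libraries of A549 cells, each from 4 µg of total RNA with oligo(dT) selection. The counts deposited by the authors are whole-number tags per Entrez Gene ID, with no normalization. The submitters' processing notes name the build hg19, and the aligner is not given in the sources used here. The authors' TPM columns hold tags relative to the clean tags of the library, with 0 tags written as 0.01, and were used only to recover the clean tags, 3516266 for shRNA-Con and 3456234 for shRNA-SOX2. The table also holds the authors' own log2 ratios, p-values and FDR, which were not used. Of the value columns, SC was read as shRNA-Con, from its initials, and S1 as shRNA-SOX2, the library then left. The 19 genes with no symbol held at most 0.0535% of gene tags.

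The 10 members and the lists were chosen with earlier results of these data known. Genes named beyond the members are those of the lists past FDR 0.001. LIMD1, MOB1B, NF2, STK3, STK4, TEAD3, TEAD4, VGLL3, VGLL4, AXL and FOXF2 were added after their values were seen. List genes were matched by Entrez Gene ID through RefSeq.

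Fold changes set counts below 3 tags to 3. Tests were two-sided, run in Python 3.11.15 (scipy 1.17.1). edgeR 4.0.16, under R 4.3.3, gave TMM factors and the tests with an assumed spread. The steps were tested on simulated data. A count of 0 allows up to 3 tags. Gene positions are from GENCODE on GRCh38 and promoter windows from RefSeq on GRCh38.p14, since the coordinates in the table carry no chromosome.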

Additional observations from a re-analysis of the deposited data

How the results depend on the processing

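The choices varied were the scaling (TMM factors, median ratio or clean tags), a minimum of 10 tags, an assumed coefficient of variation of 0.1, 0.2 and 0.4 in edgeR's exact test, FDR 0.05, a minimum of 1 for the size of the log2 fold change, 0.5 added to each count, and other tag minimums. With a single library for each condition, none could be left out. No paired analysis was possible because shRNA-Con and shRNA-SOX2 have 1 library each.

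Of 13137 genes, 2849 passed, and with an assumed coefficient of 0.1, 0.2 and 0.4 the numbers were 1166, 113 and 0, the last beside 627 genes at an unadjusted p under 0.05. FDR 0.05 gave 4902 and the minimum fold change 1570. Lower calls were 1597 of 2849, 1381 of 2795 with TMM factors and 2010 of 3018 with clean tags. Of the 6 pathway members 1 passed, 2 did with clean tags or FDR 0.05, and 0 did with each assumed coefficient, beside 2, 1 and 0 at an unadjusted p under 0.05. Of the 4 targets 3 passed, and with coefficients of 0.2 and 0.4 0 passed, beside 3 and 0 unadjusted. The pathway components past the threshold numbered 17, then 7, 0 and 0 with the coefficients (11 and 2 unadjusted at 0.2 and 0.4) and 9 with the minimum fold change. The conserved targets numbered 14, then 6, 0 and 0 (9 and 1 unadjusted) and 6 with the minimum fold change. These losses follow from the assumed spread or the stricter rule. Medians and ratios of ratios kept their direction under the alternatives run for them. Depth limits LATS1, with 7 and 4 tags.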
